A study of Mus musculus with 6 samples.

Results

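The 10 genes described here are the GATA transcription factors Gata1 and Gata2, their cofactor and partner genes Zfpm1, Klf1, Tal1 and Lmo2, and the mast cell and basophil genes Hdc, Cpa3, Mcpt8 and Fcer1a. They were chosen by name, as genes that belong to the lineages whose GATA factors PU.1 is known to antagonise. All 10 were found, each on 1 transcript cluster (the set of probes that measures a gene) of the Affymetrix Mouse Gene 2.0 ST array, out of 22180 genes with 1 symbol. The study used mouse fetal liver myeloid cells, cultured with GM-CSF, which sustains granulocytes and macrophages, at 1 ng/ml. The induced group, 3 samples, had spent 72 hours in doxycycline at 1000 ng/ml, a state that the labels equate with PU.1 expression, and the uninduced group, also 3 samples, had not. Each group has samples A, B and C, with 1 array each. Doxycycline is used to switch on an engineered gene. The labels give neither the construct nor the strain or genotype of the cells, and no group received doxycycline without PU.1 induction, so effects of the drug and of PU.1 cannot be told apart. The labels also do not say whether the samples of a group were separate cultures, so the p-values reflect the spread among these samples alone, and that spread may be technical.

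PU.1, the ETS-family transcription factor encoded by Spi1, drives granulocyte, macrophage and B cell fates, and GATA1 drives erythroid, megakaryocyte, mast cell and eosinophil fates. The 2 proteins bind each other and each can block the activity of the other, and this mutual antagonism is a textbook model of a lineage choice in blood progenitors. GATA factors act at DNA with a complex that holds TAL1, LMO2, LDB1 and an E protein, and FOG1, the product of Zfpm1, binds the GATA zinc finger. Mast cells and basophils keep GATA2, and their granules hold proteases such as CPA3 and MCPT8 and the histamine that HDC makes.

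The promoters of the 4 genes whose difference had an unadjusted 95% interval on 1 side of 0 are shown first, to set their sequence beside their values. Each is the 250 bases before a RefSeq transcription start (GRCm38.p6, the assembly also called mm10), read 5′ to 3′ on the strand of the gene. They are Mcpt8 (chr14:56085198-56085447, minus strand), Tal1 (chr4:115056176-115056425, plus strand, the first of 2 starts), Klf1 (chr8:84901732-84901981, plus strand) and Cpa3 (chr3:20242182-20242431, minus strand). Capitals mark GATA motifs on either strand (AGATAA and its relative AGATAG, together with TGATAA and its relative TGATAG) and the PU.1 core word GAGGAA. Positions count from 1 at the 5′ end of the window.
Mcpt8: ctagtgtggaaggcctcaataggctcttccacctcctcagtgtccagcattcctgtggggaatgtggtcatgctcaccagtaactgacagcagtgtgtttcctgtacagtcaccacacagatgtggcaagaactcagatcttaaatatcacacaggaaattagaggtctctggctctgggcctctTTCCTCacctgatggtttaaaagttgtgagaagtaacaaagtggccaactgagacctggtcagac
Tal1: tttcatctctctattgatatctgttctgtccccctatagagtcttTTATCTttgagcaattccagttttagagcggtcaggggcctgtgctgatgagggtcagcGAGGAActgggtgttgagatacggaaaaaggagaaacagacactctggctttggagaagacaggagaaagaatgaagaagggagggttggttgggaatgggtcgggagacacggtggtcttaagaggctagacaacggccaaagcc
Klf1: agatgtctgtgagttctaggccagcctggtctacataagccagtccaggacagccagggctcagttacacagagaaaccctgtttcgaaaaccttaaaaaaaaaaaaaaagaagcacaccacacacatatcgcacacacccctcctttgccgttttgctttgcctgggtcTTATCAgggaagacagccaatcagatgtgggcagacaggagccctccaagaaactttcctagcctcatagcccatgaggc
Cpa3: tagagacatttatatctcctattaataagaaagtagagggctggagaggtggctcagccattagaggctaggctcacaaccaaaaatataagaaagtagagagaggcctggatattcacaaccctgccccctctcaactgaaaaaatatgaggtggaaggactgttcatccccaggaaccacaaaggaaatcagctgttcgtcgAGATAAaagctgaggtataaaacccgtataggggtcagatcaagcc

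The Cpa3 promoter held a GATA motif that began at position 205, near the start site, and Klf1 held one at position 171. Tal1 had a GATA motif at position 46 and a GAGGAA at position 105. The window of the other Tal1 start held neither. Mcpt8 held no GATA motif and 1 GAGGAA, on the opposite strand at position 186, which shared a base with an E-box (CANNTG, the motif of TAL1 and E proteins). Promoters were listed for 9 of the 10 genes, with 11 starts in all. A GATA motif lay in the windows of 5 of these genes (Klf1, Tal1, Hdc, Cpa3 and Fcer1a) and a GAGGAA in those of 4 (Gata1, Tal1, Mcpt8 and Fcer1a). Counted by window, 5 of the 11 held a GATA motif, 4 a GAGGAA and 6 an E-box. Of all 32851 RefSeq windows of this length 26.5% held a GATA motif, 23.3% a GAGGAA and 66.2% an E-box. These matches describe the letters of the windows and show no binding.

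The deposited log2 expression values ran from 2.86 to 14.03. Among all 22180 genes, 83 were higher and 232 lower in the induced samples at an adjusted p under 0.05 (limma, Benjamini-Hochberg over all genes), and 83 and 118 after cyclic loess, which removes trends of the difference with level. The interquartile range of gene values was 2.29, 1.88 and 1.93 on induced A, B and C, against 2.31, 2.76 and 2.41 on uninduced A, B and C. Taken over all values, induced A thus stood closer to the uninduced arrays than induced B and C did. It correlated at 0.991 with uninduced A and at 0.973 and 0.981 with induced B and C. Single genes did not all follow this. The macrophage marker Adgre1 was highest on induced A, at 9.46, 8.63 and 8.44 on induced A, B and C, against 6.83, 6.80 and 6.42 on uninduced A, B and C. The neutrophil marker Ltf was lowest on A of the induced arrays, at 7.35, 8.97 and 8.29, against 6.23, 6.15 and 6.12. Without induced A, 1998 genes were called higher and 3535 lower, so results are given with and without that array where it matters. Induced A was singled out by its closeness to the uninduced arrays, so leaving it out tends to widen differences. A call made only without it, here or below, is thus no support for a change. Background was read from 1394 olfactory and vomeronasal receptor genes, which blood cells have little known use for. Their 95th percentile lay at 7.39, 7.99 and 7.85 on induced A, B and C and at 7.37, 7.05 and 7.34 on uninduced A, B and C. A value below it is called in the range of background. This limit was highest on induced B and C, so a gene can fall in the range there without a lower value. Of all 22180 genes, 8460 were above it on all 3 uninduced arrays and 5441 on all 3 induced arrays. Spi1 itself was at 9.13, 9.04 and 9.05 on the induced arrays, against 8.80, 8.65 and 8.84 on the uninduced ones, a difference of 0.31 (SE 0.12, limma adjusted p = 0.152). All its induced values lay above all its uninduced ones, as held for 16% of all genes. Genes of similar mean level, from 8.54 to 9.36, had a median difference of -0.37. Whether the Spi1 transcript cluster reads the induced copy is not known here.

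None of the 10 genes passed the test of induced against uninduced cells by limma, where 1.42% of all genes did (0.374% higher and 1.05% lower). Mcpt8 came nearest, 0.91 lower on the log2 scale in induced cells with an adjusted p of 0.0666 by limma. At an unadjusted p under 0.05, limma placed 3 genes lower (Mcpt8, Klf1 and Tal1) and 1 higher (Cpa3), where 28.3% of all genes had such a p (11.4% higher and 16.9% lower). The 3 induced values lay wholly on 1 side of the 3 uninduced values for 4 of the 10 genes, Mcpt8 and Klf1 below and Cpa3 and Hdc above. Over all genes this held for 31.4%, with 15.4% below and 16% above. The median difference of the 10 genes was -0.02, with 5 genes below 0 and 5 above, and that of all genes was 0.06. Without induced A, 2 of the 10 genes, Mcpt8 and Tal1, were called lower, but there 24.9% of all genes were called (15.9% lower and 9.01% higher). Levels as well as differences set limits here, since 6 of the 10 genes (Gata1, Gata2, Klf1, Hdc, Cpa3 and Fcer1a) were in the range of background on all 6 arrays, as were 11918 of all 22180 genes. None of the 10 was above it on all 6, where 24.3% of all genes were. The plot of the 10 genes by array shows these levels.

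**Figure D1:**
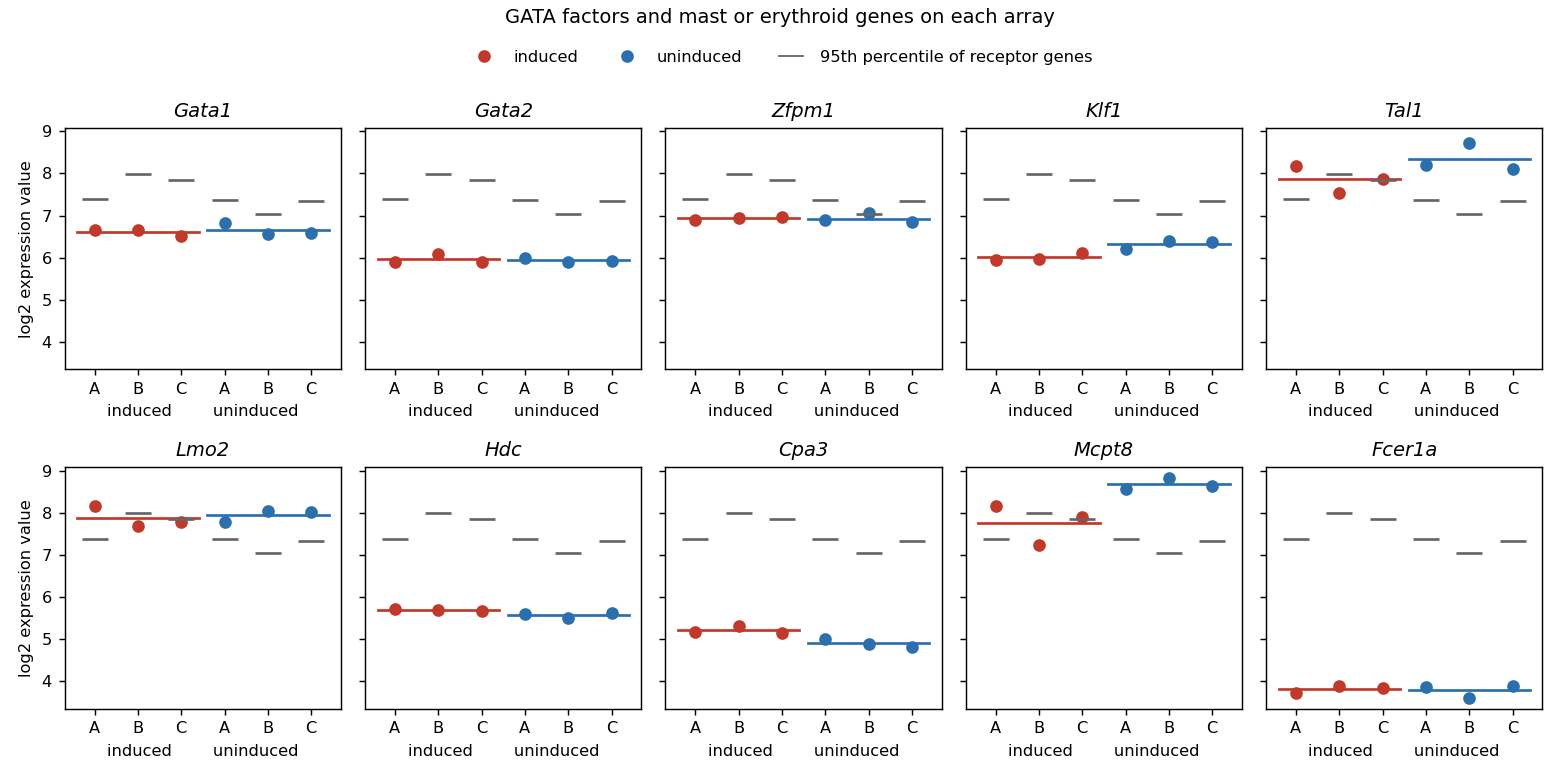
Log2 expression value (vertical axis) of each of the 10 genes on induced arrays A, B and C (red) and uninduced arrays A, B and C (blue), with horizontal lines at group means (n = 3 each) and grey dashes at each array's 95th percentile of 1394 receptor genes. Only Tal1, Lmo2 and Mcpt8 lie above the dashes on 3 or more arrays, and Mcpt8 has the widest gap between its group means, 7.76 in induced and 8.67 in uninduced cells.

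Both GATA factors were in the range of background in both groups. Gata1 (chromosome X, 7959260 to 7976663), the master regulator of erythroid cells, was at 6.67, 6.65 and 6.51 on induced A, B and C, against 6.83, 6.57 and 6.59 on uninduced A, B and C. The groups overlapped, and the difference was -0.05 (95% interval -0.35 to 0.24, limma adjusted p = 0.778). Gata2 (chromosome 6, 88193891 to 88207032), the factor of stem cells, early progenitors and mast cells, was at 5.91, 6.08 and 5.90 in induced cells, against 5.996, 5.90 and 5.93 in uninduced cells. The groups overlapped, with induced C the lowest and induced B the highest of all 6 values. Its difference was 0.02, and the interval from -0.26 to 0.30 bounds what these arrays allow for the measured signal (adjusted p = 0.915). Zfpm1 (chromosome 8, 122281856 to 122337862), the GATA cofactor FOG1, was at 6.89, 6.95 and 6.97 in induced cells, against 6.89, 7.06 and 6.84 in uninduced cells. Its groups overlapped too, with a difference of 0.01 (interval -0.27 to 0.29, adjusted p = 0.966). The signs for Gata2 and Zfpm1 turned negative under quantile normalization, median centring and cyclic loess, at -0.19 to -0.10, while Gata1 was negative under all 3, at -0.22 to -0.19. A signal in the range of background may hold little of the gene's own transcript, so these intervals bound the array signal and not the transcript.

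Tal1 and Lmo2, the DNA-binding and the bridging member of the GATA complex, exceeded the range of background on each of the 3 uninduced arrays. So did 8460 of all 22180 genes, where 5441 exceeded it on each of the 3 induced arrays. Tal1 (chromosome 4, 115056426 to 115071755) was at 8.19, 7.54 and 7.86 on induced A, B and C, against 8.19, 8.73 and 8.11 on uninduced A, B and C. Induced A lay inside the uninduced range, and induced B and C below it, B in the range of background. The difference was -0.48 (SE 0.20, interval -0.93 to -0.03, limma adjusted p = 0.164). Without induced A it was -0.64 and passed the test (adjusted p = 0.0417), and after cyclic loess it was -0.23 (adjusted p = 0.435). In bulk RNA, fewer cells that express a gene and less of its RNA per cell cannot be told apart, here and below. Lmo2 (chromosome 2, 103957903 to 103981878), a LIM-domain protein that joins TAL1 to LDB1 and GATA factors, was at 8.16, 7.68 and 7.78 in induced cells, against 7.78, 8.05 and 8.02 in uninduced cells. Its groups overlapped, with induced A the highest of all 6 values and induced B and C in the range of background, and the difference was -0.08 (interval -0.43 to 0.27, adjusted p = 0.714), or 0.12 after cyclic loess.

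Klf1, the erythroid Krüppel-like factor that switches on adult beta-globin, was lower on every induced array, though in the range of background on all 6. Klf1 (chromosome 8, 84901982 to 84905291) was at 5.95, 5.98 and 6.12 in induced cells, against 6.21, 6.40 and 6.38 in uninduced cells. The lowest uninduced value exceeded the highest induced one by under 0.1. The difference was -0.31 (SE 0.13, interval -0.60 to -0.03, limma adjusted p = 0.154). It ran against genes of similar level. When all genes were split by mean level into 10 classes of 2218, the class of Klf1 had a median difference of 0.19, and 1.26% of its genes had a lower one than Klf1. Quantile normalization, median centring and cyclic loess gave -0.52 to -0.45, with adjusted p-values of 0.11, 0.115 and 0.106. Since both groups lay in the range of background, no fold is given for it.

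Among Hdc, Cpa3, Mcpt8 and Fcer1a, the mast cell and basophil genes of the set, Mcpt8 alone was above background. Mcpt8 (chromosome 14, 56082163 to 56085499) encodes a serine protease of mouse basophil granules. It was at 8.16, 7.24 and 7.89 on induced A, B and C, against 8.56, 8.82 and 8.65 on uninduced A, B and C. All 3 induced values lay below all 3 uninduced ones, with induced B, the lowest, in the range of background and induced C just above it. The means were 7.76 ± 0.47 in induced and 8.67 ± 0.14 in uninduced cells (SD, n = 3 each), a log2 difference of -0.91 (SE 0.21, interval -1.38 to -0.44), with a limma adjusted p of 0.0666. As 1 of the 3 induced arrays was in the range of background, no fold is given. Genes of its own level class had a median difference of -0.32, and 1.49% of those 2218 genes had a lower one. Against the uninduced mean, Mcpt8 stood at -0.51 on induced A, -1.43 on B and -0.78 on C, where the medians of that class were -0.12, -0.42 and -0.39. The gene's order over the induced arrays was thus also the order of its neighbours in level, and the part of that shared shift in its value was not tested. Without induced A its difference was -1.11 and passed the test (adjusted p = 0.00811). Without any other 1 array it was -0.97 to -0.65 (adjusted p between 0.13 and 0.24), and after cyclic loess -0.64 (adjusted p = 0.137). It passed when genes under the 25th or the 50th percentile of mean level were left out before the adjustment (adjusted p = 0.0483 and 0.0393), and with arrays weighted by their fit (-0.82, adjusted p = 0.000748). Those weights rested on uninduced C and induced C, and 11506 of all 22180 genes passed under them. Prss34 and Cd200r3, also basophil genes and chosen after their values were seen, were in the range of background on every array. Their means were 6.02 and 5.98 in induced cells, against 5.86 and 5.72 in uninduced cells. Of 18 listed basophil and eosinophil genes, 13 were in that range on every array. Whether the Mcpt8 signal came from basophils was not tested.

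The other 3 genes of this kind did not leave the range of background on any array. Hdc (chromosome 2, 126593659 to 126624025), which makes histamine from histidine, was at 5.71, 5.69 and 5.67 in induced cells, against 5.60, 5.51 and 5.63 in uninduced cells. The groups were apart by under 0.05, and the difference of 0.11 (interval -0.16 to 0.38, limma adjusted p = 0.511) was below the median of 0.19 in its level class. It turned to -0.03 under quantile normalization and median centring and -0.09 after cyclic loess. Cpa3 (chromosome 3, 20215616 to 20242209), the carboxypeptidase of mast cell granules, was at 5.17, 5.32 and 5.15 in induced cells, against 5.01, 4.89 and 4.82 in uninduced cells. All induced values were above all uninduced ones, with a difference of 0.31 (SE 0.13, interval 0.03 to 0.59, adjusted p = 0.158). The receptor genes moved by a similar amount: their median difference was 0.28, and 55.0% of them had a lower one than Cpa3. In its own level class the median was 0.12, and 86.5% of those 2218 genes had a lower difference than Cpa3. After cyclic loess the difference of Cpa3 was 0.14 (limma adjusted p = 0.496). Fcer1a (chromosome 1, 173221269 to 173227232), the IgE-binding chain of the high-affinity IgE receptor, was at 3.73, 3.90 and 3.85 in induced cells, against 3.87, 3.61 and 3.89 in uninduced cells. Its groups overlapped, and the difference was 0.034 (interval -0.26 to 0.33, adjusted p = 0.858), turning to -0.11 after median centring and -0.042 after cyclic loess.

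**Figure D2:**
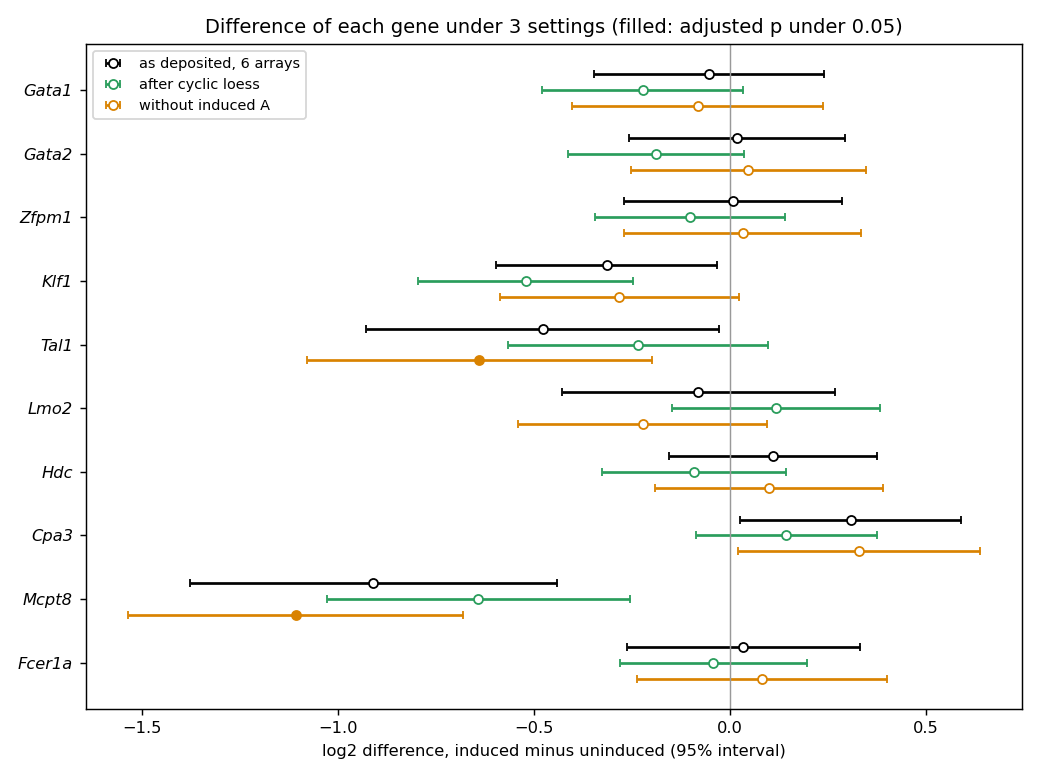
Log2 difference, induced minus uninduced (horizontal axis), of each of the 10 genes as deposited (black), after cyclic loess (green) and without induced A (orange), with unadjusted 95% intervals from limma. Filled points, Mcpt8 and Tal1 without induced A, had an adjusted p under 0.05, and the interval of Mcpt8 lies below 0 under all 3 settings.

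Differences depended on level over the whole array. In the 6 dimmest of the 10 level classes the median difference was 0.12 to 0.20, and in the 3 brightest it was -0.37 to -0.32. In those 3 brightest classes, the medians of each array against the uninduced mean were -0.13 to -0.081 on induced A, -0.50 to -0.42 on B and -0.46 to -0.39 on C. Of the receptor genes, 1269 of 1394 had a difference above 0. Within their class, 24.9% of the genes had a lower difference than Tal1, and 81.8% a lower one than Lmo2. Klf1 and Mcpt8 were beyond the lowest 5% of their classes, whose limits were -0.10 and -0.71. Gata1 and Gata2 had 14.2% and 13.5% of their classes below them.

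**Figure D3:**
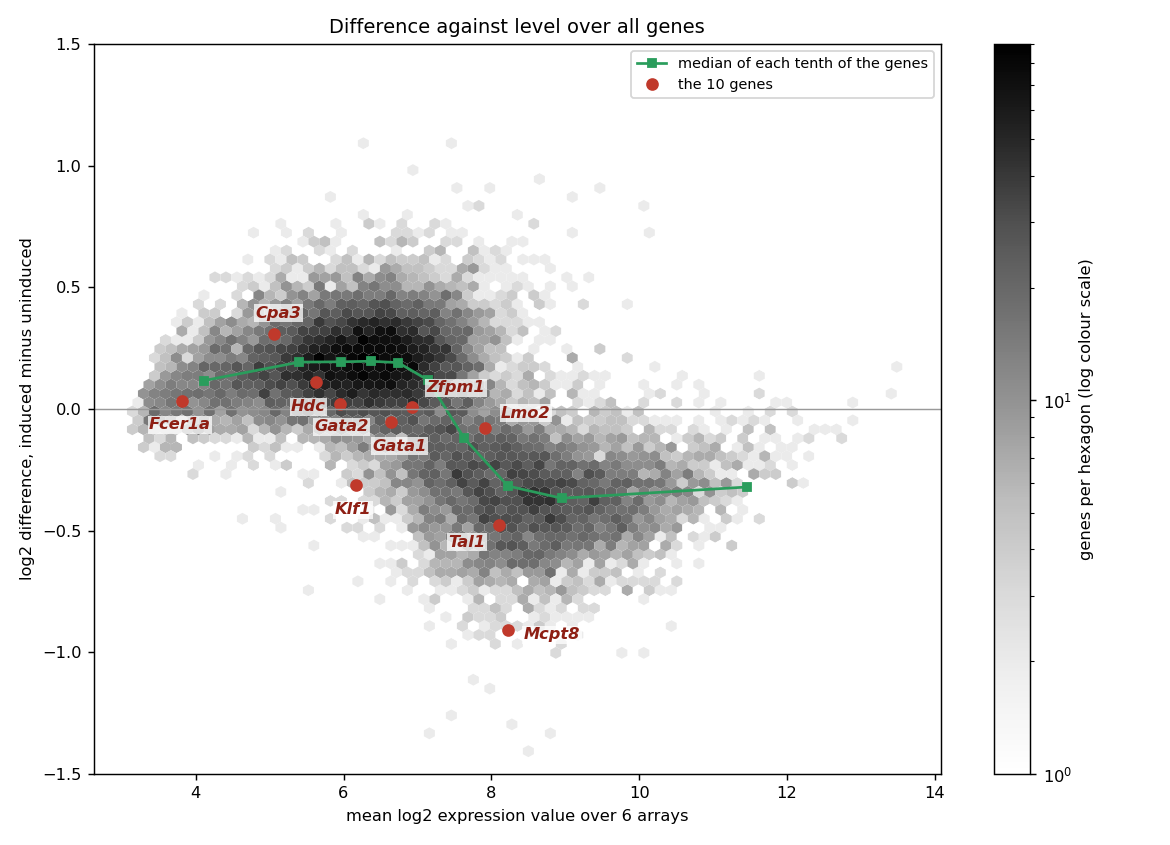
Log2 difference, induced minus uninduced (vertical axis), against the mean log2 expression value over 6 arrays (horizontal axis) for all genes but the 48 beyond 1.5 in either direction. Hexagon shade gives the number of genes, green squares the median of each of the 10 level classes and red points the 10 genes. Mcpt8 and Klf1 lie farthest below the green line, by 0.59 and 0.51.

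Other genes of the GATA complex and its target lineages were taken from 5 lists. Each is to be read beside all genes, with a median of 0.06, 1.42% called and 28.3% at an unadjusted p under 0.05. Level matters as well, since class medians were 0.12 to 0.20 in the 6 dimmest level classes and -0.37 to -0.32 in the 3 brightest. On all 3 uninduced arrays 17 of the 21 genes in the first list were above the range of background, while the other lists were mostly in it. Of 21 partner and neighbour factors of the complex, 1 was called lower and 0 higher (median -0.23, with 6 lower and 1 higher at an unadjusted p under 0.05). The one was Ssbp2, whose protein protects LDB1 from degradation. Ssbp2 (chromosome 13, 91460305 to 91706175) was at 7.10, 7.13 and 6.84 in induced cells, against 7.87, 8.18 and 7.93 in uninduced cells. All 3 induced values were in the range of background and all 3 uninduced ones above it, so Ssbp2 was at least 1.19-fold lower, measured against that range (measured means 7.02 in induced and 7.99 in uninduced cells, difference -0.97, SE 0.14, limma adjusted p = 0.00922). Its difference was -0.90 after cyclic loess (adjusted p = 0.0103), and the call ended without induced C (-0.88, adjusted p = 0.0603) and over all 41345 transcript clusters (adjusted p = 0.063). The brightest of the list were Ldb1, the dimerising scaffold of the complex (-0.39, adjusted p = 0.158), Gfi1 (-0.28, 0.50), the ETS factor Fli1 (-0.26, 0.209) and Myb (-0.20, 0.404), each given with its log2 difference and limma adjusted p. The differences of Gfi1, Fli1 and Myb were above 0 after cyclic loess. Nfe2, an erythroid and megakaryocyte factor chosen after its values were seen, followed the arrays as Mcpt8 did, at 8.11, 7.49 and 7.85 in induced cells, against 8.35, 8.76 and 8.57 in uninduced cells. Its groups did not overlap, though induced B and C were in the range of background, and its measured difference was -0.75 (SE 0.18, limma adjusted p = 0.0717), or -0.90 (adjusted p = 0.0102) without induced A.

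Erythroid, mast cell, basophil and eosinophil, and megakaryocyte genes were mostly in the range of background. That held on all 6 arrays for 19 of 22 erythroid genes, 19 of 25 mast cell genes, 13 of 18 basophil and eosinophil genes and 13 of 16 megakaryocyte genes. Among the erythroid genes 0 were called by limma (median 0.13, with 2 lower at an unadjusted p under 0.05). The measurable ones serve iron and haem handling that other cells share, namely the transferrin receptor Tfrc (-0.36, adjusted p = 0.164), the mitochondrial iron importer Slc25a37 (-0.40, 0.121) and ferrochelatase, Fech (-0.33, 0.241, and 0.03 after cyclic loess). These values lay near the median differences of their level classes, -0.32 for Tfrc and Slc25a37 and -0.37 for Fech. Epor, the erythropoietin receptor, was in the range of background at 6.92 in induced and 6.84 in uninduced cells. Adult globin genes were not among those with 1 symbol here and were not analysed.

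Of the mast cell genes 1 was called, Hpgds, which makes prostaglandin D2 (median of the list 0.17). Hpgds was at 6.43, 6.56 and 6.56 in induced cells, against 5.99, 5.74 and 5.89 in uninduced cells (difference 0.64, SE 0.13, limma adjusted p = 0.0392). It passed the test with both groups in the range of background, so no fold is given, and the call ended after quantile normalization, median centring and cyclic loess (0.44 to 0.50, adjusted p between 0.0611 and 0.0844), over all 41345 transcript clusters (0.126) and without any 1 array other than induced A. Kit, the stem cell factor receptor of progenitors and mast cells, was at 9.62, 9.16 and 9.62 in induced cells, against 9.18, 9.72 and 9.50 in uninduced cells. Its groups overlapped, with a difference of 0.00 (interval -0.39 to 0.40, adjusted p = 0.995). Ctsg, Srgn and Fcer1g, which neutrophils or macrophages use as well, were bright and differed by -0.036, 0.064 and 0.17 (adjusted p = 0.843, 0.702 and 0.352). Of the basophil and eosinophil genes 0 were called (median 0.19, with 5 higher and 1 lower at an unadjusted p under 0.05). At such a p by limma, 390 of the 1394 receptor genes and 11.4% of all genes were higher. Csf2rb2, the beta chain of the IL-3 receptor in mice, was the lowest at -0.74 (SE 0.24, limma adjusted p = 0.12), while Csf2rb, Il3ra and Cebpe were at -0.095, -0.27 and -0.33. Csf2rb2 passed without induced A, at -0.97 (adjusted p = 0.0153). Megakaryocyte genes had 0 calls (median 0.16, with 1 higher and 1 lower at an unadjusted p under 0.05). Of these Plek, a signalling protein of platelets and leukocytes, was at -0.55 (adjusted p = 0.18), Itgb3 at -0.31 (0.163), Treml1 at 0.43 (0.184) and Itga2b at 0.23 (0.328).

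**Figure D4:**
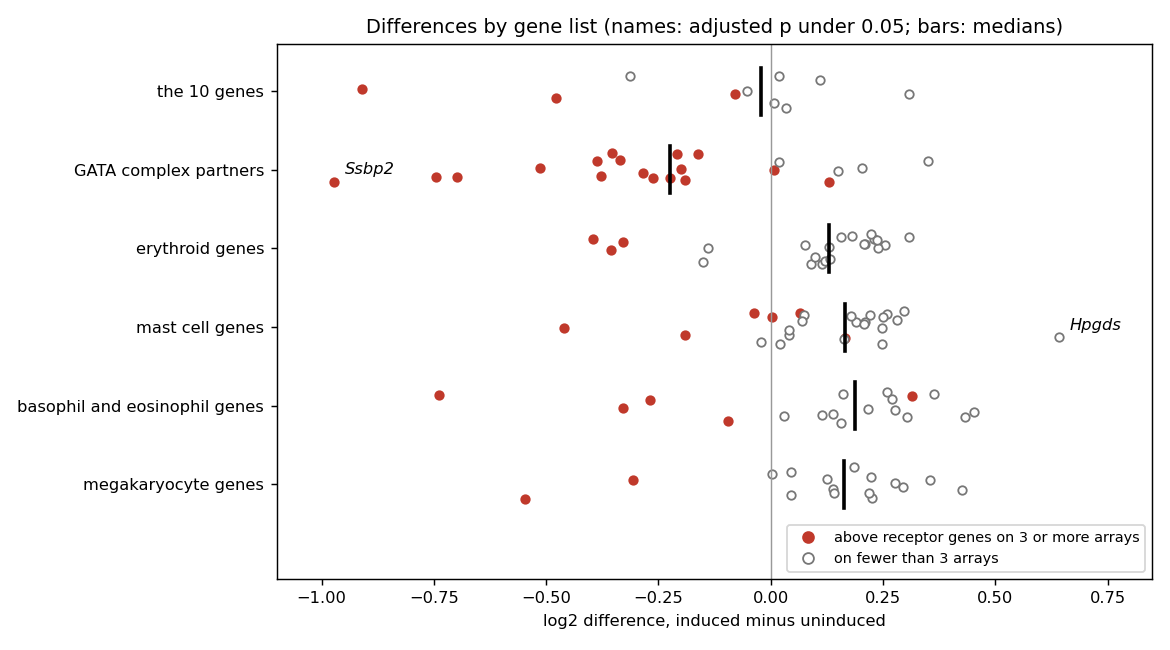
Log2 difference, induced minus uninduced (horizontal axis), of each gene in the set of 10 and in the 5 lists around it. Red points were above the 95th percentile of the receptor genes on 3 or more arrays and open points on fewer, black bars are list medians, and the named genes, Ssbp2 and Hpgds, had an adjusted p under 0.05. Bars of the complex partners and of the erythroid list stand at -0.23 and 0.13. Over all genes, the medians of the level classes ran from -0.37 to 0.20.

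Markers of other cells were read on the same arrays. Macrophage markers had 5 of 11 called higher by limma, where 0.374% of all genes were, and their summed linear level was 9517 to 10725 in induced cells and 4157 to 4916 in uninduced cells. Lyz2, a lysozyme of macrophages and granulocytes, was the brightest of them and so the largest part of these sums. The sums thus do not weigh all 11 markers alike. Its log2 means, those of Lyz2, were 12.73 in induced and 11.30 in uninduced cells. Of the 11 differences 9 were above 0. The 5 called were Adgre1 (2.16), Mrc1 (1.93), Mpeg1 (1.77), Lyz2 (1.43) and Cd68 (1.36). The 2 below 0, singled out after their values were seen, were Cd14 and Fcgr3, at -0.78 and -0.25 (limma adjusted p = 0.153 and 0.239). Neutrophil markers had 5 of 12 called higher, with sums of 32616 to 35223 in induced cells and 29149 to 31421 in uninduced cells. The 5 were Ltf (2.04), Mmp8 (1.99), S100a9 (1.53), Mpo (1.11) and Csf3r (0.95). Elane, Prtn3 and Ngp, the brightest of the list, weigh most in these sums and differed by 0.070, -0.016 and 0.021. On all 6 arrays 4 of 11 macrophage and 6 of 12 neutrophil markers were above the range of background. Of the same markers, 3 macrophage and 2 neutrophil ones were in that range on all 6. Of 11 lymphocyte, 7 hepatocyte and 8 endothelial and stromal markers 0 were called and 0 were above the range of background on all 6 arrays. The part of a changed mix of cells in the value of Mcpt8 was not tested.

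By likeness of profile over the 6 arrays, the genes closest to Gata2 were Trim46, Zfp3 and Ppp1r16b, out of 8770 genes above the range of background on at least 3 arrays. The measure was the Euclidean distance between log2 values after each gene's own mean was subtracted, and it was 0.0696, 0.0801 and 0.0893 for these 3, with a median of 0.697 over all of them. Gata2 was in the range of background and varied little, so this measure returns the genes that vary least, and the likeness shows no more than that.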

How the data were processed

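Each of 6 RNA samples had 1 Affymetrix array (Mouse Gene 2.0 ST), and sample titles gave the groups. The authors deposited log2 values for 41345 transcript clusters, and these were used. Per the submitters' processing notes Partek and build mm10 were used; how background was corrected and arrays were normalized is not given in the sources used here. The log2 scale was read from the values. GEO's platform annotation gave 23521 transcript clusters 1 symbol, 1814 several and 16010 none; a gene with several was represented by its brightest on average, for 22180 genes. Gene positions and promoters are from RefSeq tables of GRCm38.p6.

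The test was limma 3.58.1 under R 4.3.3, with lmFit and eBayes, two-sided and unfiltered, and with Benjamini-Hochberg adjustment over all 22180 genes at 0.05. Intervals are unadjusted. The test was checked on simulated data. The 10 genes, the lists and the rules were chosen with earlier results of these data known. Named genes are the 10, Spi1 and the 3 genes closest to Gata2. Every called gene and the 4 brightest genes of each of the 5 lists are named too. Nfe2, Prss34, Cd200r3 and the named macrophage and neutrophil markers fall outside this rule and were chosen after their values were seen. The sample letter was not in the model. The number of arrays limits the precision.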

Additional observations from a re-analysis of the deposited data

How the results depend on the processing

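The number of the 10 genes past the threshold, 0, became 1 (Mcpt8) with the letter as a replicate block, with genes above the 25th or 50th percentile of mean level only, and at an adjusted p under 0.1, and 4 (Mcpt8, Klf1, Tal1 and Cpa3) with array weights, which rested on uninduced C and induced C (weights 4.60 and 3.46, others at most 0.93). Without 1 array at a time it was 0 to 2, the 2 without induced A. Deviations of same-letter samples correlated at -0.31 (A), -0.28 (B) and 0.42 (C) and the labels tie no letter to a common culture, so the block rests on a shared letter only; under it Mcpt8 had an adjusted p of 0.0243 and Hpgds of 0.0545 by limma. The number of all genes past the threshold, 315, was 599 with the replicate block, 199 after median centring, 201 after cyclic loess, 11506 with array weights, 80 over all 41345 transcript clusters (a larger adjustment), 98 and 927 at adjusted p under 0.01 and 0.1, and 97 to 5533 without 1 array at a time, the highest without induced A. Other causes were not tested. The median of all genes moved to -0.08 after median centring, a shift of over 0.1 from 0.06. Some genes not past the threshold changed sign. After cyclic loess Gata2 was at -0.19, Zfpm1 at -0.10, Lmo2 at 0.12, Hdc at -0.092, Fcer1a at -0.042, Myb at 0.056, Fli1 at 0.017, Gfi1 at 0.043, Fech at 0.034, Epor at -0.046, Ctsg at 0.046 and Csf2rb at 0.21. After median centring Gata2 was at -0.12, Zfpm1 at -0.13, Hdc at -0.032, Fcer1a at -0.11, Epor at -0.064, Srgn at -0.076 and Kit at -0.14. Quantile normalization put Gata2 at -0.13, Zfpm1 at -0.10, Hdc at -0.029, Epor at -0.034 and Csf2rb at 0.073, and array weights put Gata2 at -0.011, Fcer1a at -0.026 and Ctsg at 0.027. Without 1 array at a time Gata1 ran from -0.10 to 0.031, Gata2 from -0.039 to 0.050, Zfpm1 from -0.036 to 0.072, Lmo2 from -0.22 to 0.018, Fcer1a from -0.056 to 0.085, Kit from -0.14 to 0.15, Gfi1 from -0.58 to 0.14, Ctsg from -0.089 to 0.027 and Csf2rb from -0.24 to 0.088. Mcpt8, Tal1 and Klf1 stayed below 0 and Cpa3 above 0 under all alternatives that tested them. Signal near background limits the values of the 6 dim genes.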
